A study of Mus musculus with 45 samples.

Results

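The genes described here encode the proteins of the cytosolic ribosome, and they were followed in T cells sorted from mice with B16 melanoma. They were chosen by symbol (Rpl or Rps followed by a number, and Rplp0, Rplp1, Rplp2 and Rpsa), without pseudogene symbols or S6 kinases, and with at least 10 CPM (a library's counts scaled to a common total) in at least 4 of the 45 libraries. Of 23420 genes in the count table, 84 symbols had this form and 77 passed the limit. These 77 were 40 proteins of the large subunit, 31 of the small subunit, 3 of the P-stalk and 3 paralogs named after another ribosomal protein (Rpl22l1, Rps27l and Rpl7l1). The choice used how strongly a gene was read, not a difference between groups.

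Regulatory T cells (Tregs), CD4 T cells that depend on the factor Foxp3 and restrain immune responses, came from B16 tumours, a transplantable skin tumour of the mouse, and from non-draining lymph nodes (NDLN), which do not receive lymph from the tumour. WT Tregs were labelled wild type, HetWT Tregs carried the genotype label Het_WT, and HetNrp1def Tregs the label Het_Nrp1-, where Nrp1 (neuropilin-1) is a surface receptor of Tregs. The N samples carry the same genotype label as HetNrp1def. Their titles set them apart, so they form a separate set here, and the design text names homozygous besides heterozygous deficient mice. The ninth group was effector T cells from wild-type tumours. The sources used here give neither the driver of the deletion nor the deleted part of Nrp1, nor the animals' age, sex and number. Each group had 5 libraries, with replicate labels 2, 3 and 4 (single-sorted cells) and ds1 and ds2, read as double-sorted. In 4 pairs of libraries the counts differed far less than in any other pair of a group (chi-square per degree of freedom at most 2.75, against at least 68.4 in the other 86 pairs), so the counts of a pair were added up and stand for 1 sample. This left 41 samples, 4 in each HetWT and HetNrp1def group and 5 in each other group. Whether replicates came from separate animals is not in the labels. The p-values therefore rest on a spread between samples that may be technical.

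A ribosome has a small subunit, which reads the mRNA, and a large subunit, which joins amino acids. The P-stalk, made of Rplp0 with Rplp1 and Rplp2, recruits elongation factors to the large subunit. The proteins are made in nearly equal amounts, and their mRNAs begin with a run of C and T called the 5′ terminal oligopyrimidine (5′TOP) tract, through which the kinase complex mTORC1 controls their translation. T cells that leave rest and divide enlarge their stock of ribosomes.

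The start sites show how far these genes share the 5′TOP letters. RefSeq promoter sequences (build GRCm38.p6, 250 bases before and 50 after the start) were matched for 58 of the 77 genes, with 68 entries since 8 genes had more than 1. A run of 8 or more C or T on the gene's own strand reached within 10 bases of the start in 28 of the 68 entries (41.2%), against 13.7% of all 32851 promoters of that length. Windows of 30 bases around the start are shown for the longest run (Rpl7a), for 3 genes that were lower in wild-type tumour Tregs than in effector T cells and have long runs (Rpl35, Rpl15, Rpl14), for the 3 genes with the lowest p in that comparison (Rps19, Rps7, Rplp0) and for 2 paralogs that did not follow the others (Rps27l, Rpl7l1). Capitals mark the longest run of C and T that comes within 10 bases of the start, which is the 16th base of each window. Where several such runs are equally long, as in Rps7, only the first is marked, and a later one can lie nearer the start.
Rpl7a, chr2:26910792-26910821, + strand: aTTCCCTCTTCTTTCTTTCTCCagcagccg
Rpl35, chr2:39005117-39005146, - strand: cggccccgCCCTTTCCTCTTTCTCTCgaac
Rpl15, chr14:18270972-18271001, - strand: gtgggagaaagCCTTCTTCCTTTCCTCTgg
Rpl14, chr9:120571502-120571531, + strand: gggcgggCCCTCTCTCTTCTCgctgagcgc
Rps19, chr7:24884898-24884927, + strand: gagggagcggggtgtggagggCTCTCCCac
Rps7, chr12:28635939-28635968, - strand: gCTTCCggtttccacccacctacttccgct
Rplp0, chr5:115559452-115559481, + strand: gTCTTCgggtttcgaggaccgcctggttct
Rps27l, chr9:66946071-66946100, + strand: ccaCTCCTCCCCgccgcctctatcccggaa
Rpl7l1, chr17:46782642-46782671, - strand: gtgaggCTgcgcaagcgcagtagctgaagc

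In these windows the run is 21 bases long in Rpl7a, 18 in Rpl35, 17 in Rpl15 and 14 in Rpl14. It is 7 bases long in Rps19 (the entry with the longest run of its 3), 5 in Rps7 and Rplp0, 9 in Rps27l and 2 in Rpl7l1. Both strands of the whole 300-base sequences were also searched for 3 short motifs, whose matches may overlap each other. CCGGAAG, letters bound by ETS factors, was found in 35.3% of the members' entries and 8.86% of all promoters. GCCATNTT, letters bound by YY1, was found in 22.1% against 6.05%, and TATAAA, the TATA box, in 10.3% against 13.6%. A match is a description of these letters and not evidence of binding.

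Total counts per sample ran from 2945638 to 35787148, with a median of 11759369. The 9 ds2 samples were the shallowest. The nuclear RNA Malat1 made up a median 1.70% of counts in ds2 and 0.191% in ds1. Nrp1 itself ran from 265 to 412 TMM-scaled CPM in WT NDLN Tregs (TMM is a scaling factor per sample), from 144 to 338 in N and from 146 to 342 in HetNrp1def NDLN Tregs. HetWT NDLN Tregs ran from 219 to 1439. NDLN medians were 388 in WT and 337 in HetWT, against 187 in N and 151 in HetNrp1def, but the ranges overlapped. In tumours the N range (130 to 184) lay within that of WT (103 to 290). HetNrp1def (105 to 260) and HetWT (95.1 to 231) overlapped there as well. Nrp1 counts therefore do not check the label of a single sample in either tissue, nor separate the groups in tumours. The 5 Treg markers (Il2ra, Ikzf2, Ctla4, Tnfrsf18 and Foxp3) summed to 103 to 265 CPM in effector T cells and to at least 1899 in every Treg sample. Foxp3 added little to this sum and was not read in every Treg sample. It ran from 0 to 57.4 TMM-scaled CPM in WT NDLN Tregs (median 0.951). The range was 5.99 to 42.6 in WT tumour Tregs and 0 to 1.62 in effector T cells.

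Among the 77, the spread in level was large. Per kilobase of merged exons, mean CPM over the 41 samples (without TMM scaling) was highest for Rplp1 (3489), Rplp0 (2331) and Rps3a1 (2296). It was lowest for Rps27 (5.68), Rpl7l1 (25.8) and Rpl22l1 (119). Of the genes highest in mean log2 CPM, which is not corrected for length, Rps14 (11.91), Rplp0 (11.84), Rpl4 (11.82) and Rpsa (11.76) led, and Rps27 (1.46), Rpl7l1 (6.25), Rps27l (6.62), Rpl22l1 (7.80) and Rpl28 (8.31) were last. Ribosomes need all core proteins, so the low counts of some of them stand out. Rps27 reached 10 CPM in 5 libraries with a mean of 5.78 CPM and was just inside the limit. Just outside it, Rps4y2 reached 10 CPM in 3 libraries, Rpl39l in 2 and Rpl30 in 1, and Rpl26, Rpl34, Rpl3l and Rpl10l in 0. Mean CPM was 0.00404 for Rpl26, 2.88 for Rpl30 and 3.11 for Rpl34. In the GENCODE vM21 transcripts, 47.4% of the 50-base stretches of Rpl26, 79.2% of those of Rpl30, 63.1% of those of Rps27 and 6.93% of those of Rpl34 also occur in other genes, and the handling of such reads in counting is not stated here. Among genes named below, the share was 95.1% for Rpl35, 65.6% for Rpl22l1, 59.9% for Rps7, 55.4% for Rps28, 41.8% for Rplp0, 38.5% for Rpl37a and 25.3% for Rps19. How far this affects their counts was not tested, and the share alone does not measure it.

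Wild-type Tregs from tumours gave a smaller share of their counts to these genes than those from NDLN. In NDLN the 77 genes took 11.97% of counts in replicate 2, 21.4% in 3, 16.4% in 4, 15.5% in ds1 and 7.77% in ds2, a mean of 14.6% ± 5.10 (SD, n = 5). In tumours they took 6.67%, 6.43%, 8.72%, 11.6% and 3.73% in the same order, a mean of 7.42% ± 2.92 (SD, n = 5). The groups overlapped, since ds2 was the lowest sample in both tissues and the tumour ds1 sample lay above NDLN ds2. Within a number, the tumour sample was lower than its NDLN counterpart in 5 of 5 numbers, by between 1.34 and 3.33 times. The mean difference was -7.18 percentage points over all samples, -9.30 over the single-sorted and -4.01 over the double-sorted ones. In bulk RNA, fewer cells of a type and less RNA per cell cannot be told apart.

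**Figure D1:**
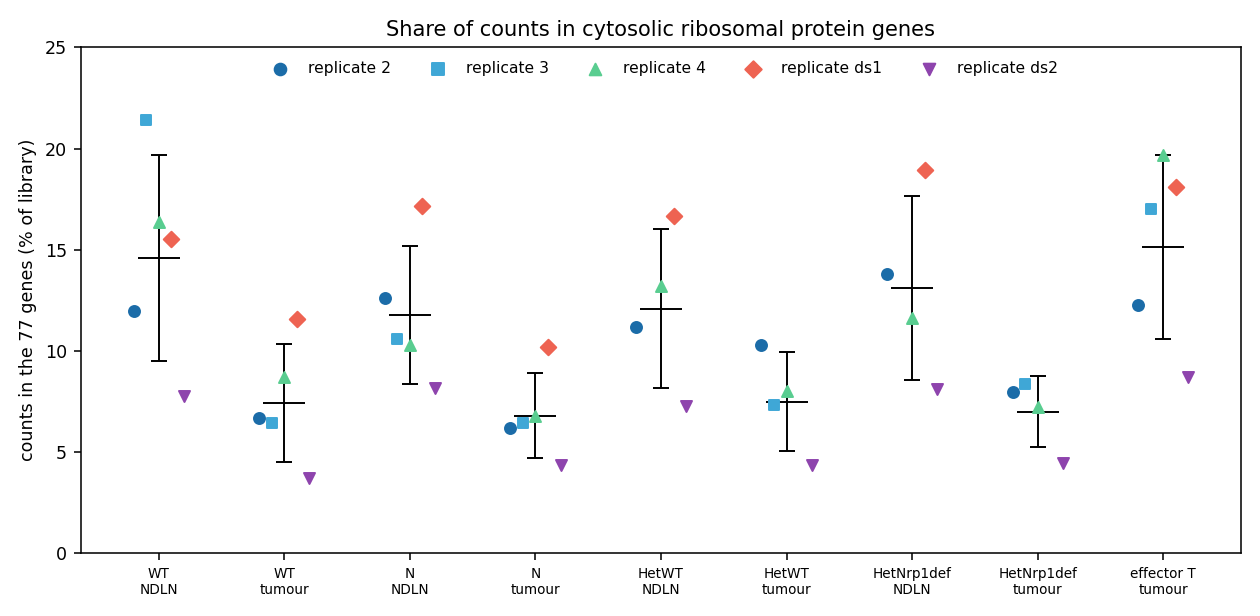
Percent of each sample's counts that fell in the 77 ribosomal protein genes (vertical axis), by group (horizontal axis). Points are samples, coloured and shaped by replicate number, and bars give the mean and SD. WT tumour Tregs lie between 3.73% and 11.6% and WT NDLN Tregs between 7.77% and 21.4%, and ds2 samples are the lowest of each group.

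Gene by gene, the difference in wild-type Tregs had 1 direction in nearly all members, while few passed in a fit with no term for replicate number. The log2 fold change (tumour minus NDLN) was below 0 for 76 of 77 genes, against 46.3% of the 14668 genes tested, and its median was -1.07, against 0.09 over all genes. By role the median was -1.03 in the large subunit, -1.14 in the small subunit, -1.19 in the P-stalk and -0.40 in the 3 paralogs. With edgeR's quasi-likelihood test and an adjusted p below 0.05, 4 of 77 were lower and 0 higher, where 0.361% of all genes were called lower and 0.511% higher. At an unadjusted p below 0.05, 40 of 77 were lower, against 4.43% of all genes. The median was -1.39 in single-sorted and -0.95 in double-sorted samples, which gave 62 calls (1.32% of all genes were called lower) and 0 calls (0.00689%).

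Rps19, a small subunit protein mutated in Diamond-Blackfan anaemia, fell in tumours and had the lowest p of the 77 genes. It lies at chr7:24884371-24889806 (+ strand, mm10, GENCODE vM21). In WT NDLN Tregs it was read at 2582, 4790, 3873, 2600 and 2519 TMM-scaled CPM in replicates 2, 3, 4, ds1 and ds2. In WT tumour Tregs it was read at 1022, 1523, 1352, 1577 and 969. Every tumour sample was below every NDLN sample. The log2 fold change was -1.34 (SE 0.26; adjusted p = 0.00143, edgeR), and the call held without any single sample of the 10.

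Rps7, a small subunit protein on chr12:28630854-28635953 (- strand, mm10), gave 872, 2452, 1500, 1267 and 949 CPM in NDLN and 364, 399, 590, 807 and 400 in tumours, in the same order. The groups did not overlap, though the highest tumour sample (ds1) was close to the lowest NDLN one. The log2 fold change was -1.46 (SE 0.29; adjusted p = 0.00269, edgeR), and the adjusted p was 0.0672 without NDLN replicate 3, the highest sample. Rpl37a, a small zinc-binding protein of the large subunit, gave 406, 1845, 820, 413 and 426 CPM in NDLN against 201, 182, 345, 353 and 178 in tumours. Its groups did not overlap either, and NDLN replicate 3 stood far above the others. Its log2 fold change was -1.64 (SE 0.39; adjusted p = 0.0183, edgeR), and 3 of the 10 left-out samples ended the call (highest adjusted p 0.288). Rps28, at the mRNA exit of the small subunit, differed by -1.62 on the log2 scale (SE 0.41; adjusted p = 0.0347, edgeR). Its groups overlapped, and 4 of the 10 left-out samples ended the call. Groups did not overlap in the lower direction for 4 of 77 genes (Rpl37a, Rps7, Rps19 and Rpl13), against 1.25% of all genes.

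**Figure D2:**
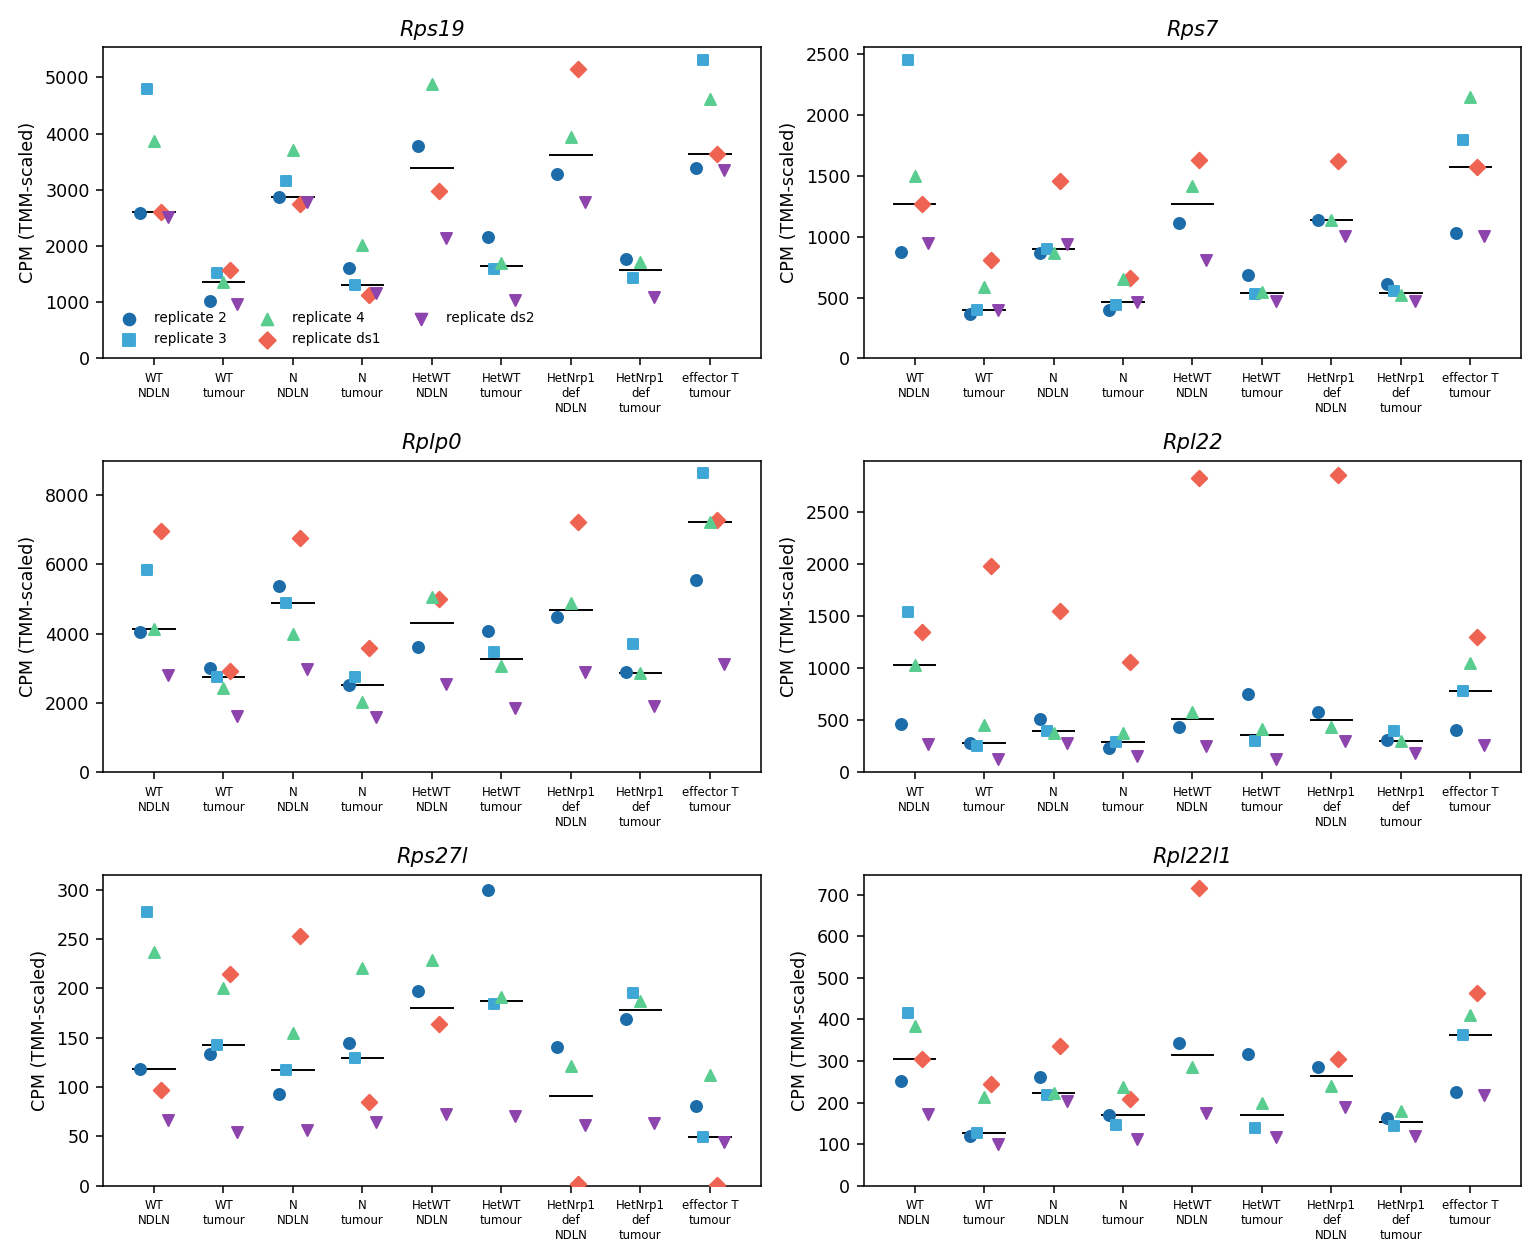
TMM-scaled CPM (vertical axis, one panel per gene) in each sample by group (horizontal axis), coloured and shaped by replicate number, with a bar at the group median. Rps19 is at or below 1577 in all WT tumour samples and at or above 2519 in all WT NDLN samples, while Rps27l shows no such gap and Rpl22 is highest in ds1 samples of most groups.

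The other Treg sets were lower in tumours too, with fewer calls. In N Tregs the share was 12.6%, 10.6%, 10.3%, 17.2% and 8.19% in NDLN (replicates 2, 3, 4, ds1 and ds2) and 6.21%, 6.43%, 6.79%, 10.2% and 4.38% in tumours. The tumour sample was the lower one in 5 of 5 numbers. The mean difference was -4.96 points, -4.68 in single-sorted and -5.38 in double-sorted samples. All 77 log2 fold changes were below 0 (47.6% of all genes), with a median of -0.82 (-0.78 single-sorted and -1.12 double-sorted), and 1 gene was called lower, where 0.225% of all genes were. At an unadjusted p below 0.05, 27 of 77 were lower (3.76% of all genes). The called gene was Rps19, at 2878, 3155, 3700, 2755 and 2775 CPM in NDLN and 1601, 1313, 2025, 1124 and 1158 in tumours, with no overlap. Its log2 fold change was -1.08 (SE 0.26; adjusted p = 0.0202, edgeR), and 3 of 10 left-out samples (NDLN 4, tumour ds1, tumour ds2) ended the call, with adjusted p up to 0.112. Groups did not overlap in the lower direction for 4 of 77 genes, against 1.57% of all genes.

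In HetNrp1def Tregs, of which replicate 3 of NDLN and ds1 of tumours were merged into replicate 4, the share was 13.8%, 11.6%, 19.0% and 8.10% in NDLN (2, 4, ds1 and ds2) and 7.98%, 8.34%, 7.21% and 4.45% in tumours (2, 3, 4 and ds2). It was lower in tumours in 3 of the 3 numbers that both tissues have. The ds1 sample, the highest of NDLN, has no counterpart in tumours: the mean difference was -6.12 points with it and -4.18 without the ds1 samples. Of 77 log2 fold changes 75 were below 0 (53.5% of all genes). Their median was -1.31 over all samples, -0.70 in single-sorted samples and -0.65 without ds1. The double-sorted value of -2.23 rests on 1 tumour sample. Of the 77, 2 were called lower, where 0.307% of all genes were. Rps19 was one of them (log2 fold change -1.34, SE 0.29, adjusted p = 0.00988, edgeR). At an unadjusted p below 0.05, 52 of 77 were lower (6.99% of all genes), and groups did not overlap for 22 (2.67%). Rps19 gave 3284, 3944, 5154 and 2781 CPM in NDLN and 1760, 1425, 1712 and 1089 in tumours, with no overlap, but 6 of 8 left-out samples ended its call (adjusted p up to 0.149).

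HetWT Tregs were also lower in tumours, with no member called by edgeR. The share was 11.2%, 13.2%, 16.7% and 7.26% in NDLN (2, 4, ds1 and ds2) and 10.3%, 7.34%, 8.03% and 4.34% in tumours (2, 3, 4 and ds2), lower in 3 of 3 shared numbers. The mean difference was -4.59 points, -3.65 in single-sorted samples and -7.63 in double-sorted ones, of which tumours have 1. Tumour replicate 4 is the sum of the libraries labelled 4 and ds1 and was counted as single-sorted, as was that of HetNrp1def Tregs, and NDLN replicate 4 is the sum of 3 and 4. The log2 fold change was below 0 for 75 of 77 genes (55.9% of all genes), with a median of -0.85, and -0.43 and -1.65 in those subsets. With edgeR 0 genes were called (0.075% of all genes were called lower), with 21 of 77 lower at an unadjusted p below 0.05 (4.81% of all genes). DESeq2 called 1 of the 77, near the share of all genes that it called lower (1.09%). Groups did not overlap for 4 of 77 (2.11% of all genes). Rps19 had a log2 fold change of -1.09 (SE 0.29; adjusted p = 0.0998, edgeR), with overlapping groups.

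**Figure D3:**
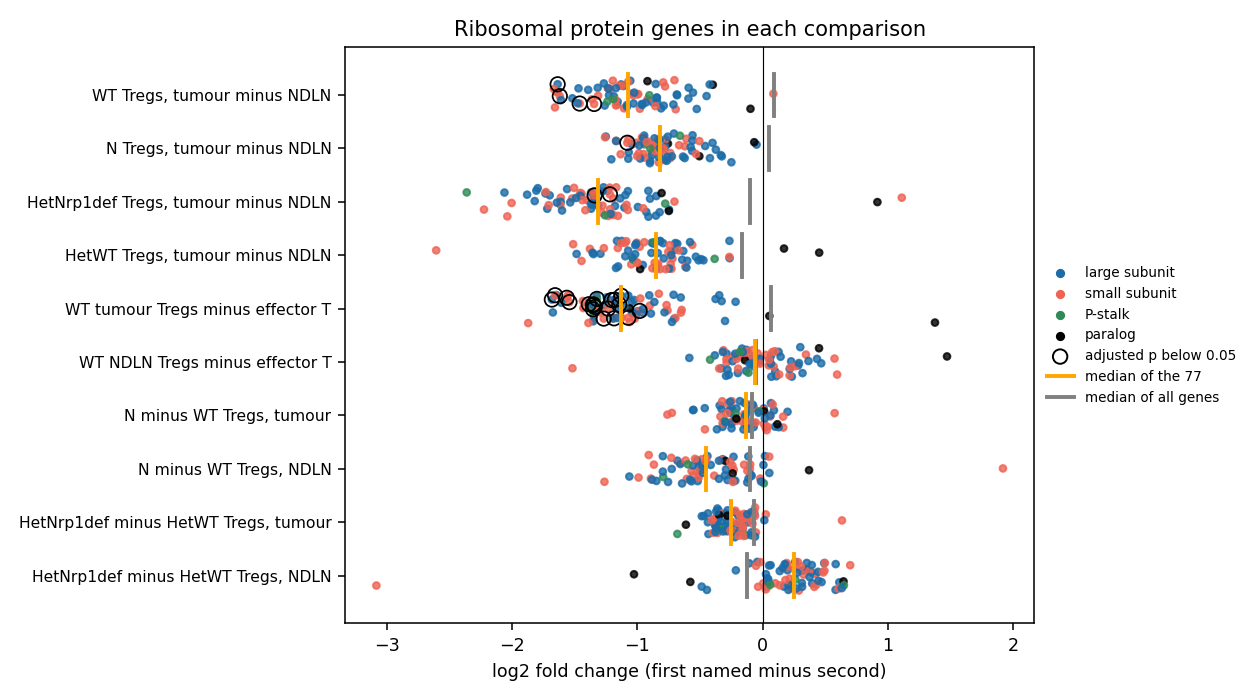
log2 fold change of each of the 77 genes (horizontal axis; first named group minus the second) in 10 comparisons (vertical axis). Points are genes, coloured by role, rings mark an adjusted p below 0.05, the orange bar is the median of the 77 and the grey bar that of all 14668 genes. The orange bar lies at -0.82 or below in the 4 tissue comparisons and for WT tumour Tregs minus effector T cells, and between -0.45 and 0.25 in the other 5.

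Wild-type tumour Tregs against the effector T cells of wild-type tumours gave the most called members of the 12 comparisons. Effector T cells gave 12.3%, 17.0%, 19.7%, 18.1% and 8.70% of counts to the 77 genes (replicates 2, 3, 4, ds1 and ds2; mean 15.1% ± 4.54, SD, n = 5). Tumour Tregs were lower in 5 of 5 numbers, by 1.56 to 2.65 times. The mean difference was -7.72 points, -9.04 in single-sorted and -5.74 in double-sorted samples. The same WT tumour samples enter this comparison and the tissue one, so the values are not independent of each other. The median log2 fold change was -1.13 (all genes 0.07), -1.23 in single-sorted and -0.99 in double-sorted samples, and 75 of 77 were below 0 (47.5% of all genes). With edgeR 19 were called lower, where 1.61% of all genes were called lower and 4.1% higher, and 0 of the 77 were called higher. These were 11 of 31 small subunit, 7 of 40 large subunit and 1 of 3 P-stalk genes. At an unadjusted p below 0.05, 40 of 77 were lower (6.72% of all genes). Double-sorted samples alone gave 0 calls (0.0345% of all genes were called lower) and single-sorted ones 59 (2.79%). Leaving out 1 sample gave between 10 (without effector ds1) and 25 calls.

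Rps19 led again: effector T cells gave 3396, 5317, 4619, 3631 and 3350 CPM, all above the highest WT tumour Treg sample (1577). The log2 fold change was -1.66 (SE 0.26; adjusted p = 7.85e-06, edgeR), the call holding in each of 10 left-out fits. For Rps7, effector T cells gave 1027, 1797, 2151, 1575 and 1009 CPM, again without overlap (-1.56, adjusted p = 0.000188). Rplp0, which anchors the P-stalk and lies at chr5:115559467-115563727 (+ strand, mm10), gave 5540, 8634, 7235, 7276 and 3122 CPM in effector T cells and 2998, 2749, 2426, 2934 and 1615 in WT tumour Tregs, with the lowest effector sample (ds2) just above the highest Treg one. Its log2 fold change was -1.32 (SE 0.29; adjusted p = 0.00145, edgeR).

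Rps3, which lines the mRNA entry of the small subunit, fell by 1.34 on the log2 scale (adjusted p = 0.00275). In the large subunit Rpl13 (-1.39, adjusted p = 0.00548) and Rpl14 (-1.35, adjusted p = 0.00615) were also called. The 11 called genes at an adjusted p of 0.00786 or more were Rps6, whose phosphorylation is a common readout of mTORC1, Rpl15, Rps2, Rps28, Rps9, Rpl35, Rpl37a, Rps14, Rps18, Rpl3 and Rps3a1. Groups did not overlap for 10 of 77, against 2.88% of all genes. Rplp1 (-1.37, SE 0.63, adjusted p = 0.244) and Rplp2 (-1.35, SE 0.96, adjusted p = 0.532), the stalk partners of Rplp0, had like estimates with larger errors and did not pass. Rpsa, a small subunit protein also known as a laminin receptor, had -1.02 (adjusted p = 0.122), and Rps27a, made as a fusion with ubiquitin, -1.06 (adjusted p = 0.330).

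WT NDLN Tregs and effector T cells were close. The share differed by -0.54 points (0.26 in single-sorted and -1.73 in double-sorted samples), with the Treg sample the lower one in 4 of 5 numbers. The median log2 fold change was -0.06 (0.13 single-sorted and 0.02 double-sorted), with 44 of 77 below 0 (52.2% of all genes). With edgeR 0 genes passed (0.102% of all genes were called lower and 1.69% higher), and DESeq2 also called 0 (0.634% of all genes were called lower). At an unadjusted p below 0.05, 0 of 77 were lower (2.9% of all genes) and 1 was higher, the paralog Rps27l. For Rps19 the log2 fold change was -0.31 (SE 0.25), with overlapping groups.

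Between genotypes no member passed. N minus WT gave a median log2 fold change of -0.13 in tumours (-0.20 single-sorted and 0.05 double-sorted) and -0.45 in NDLN (-0.82 and 0.20), so in NDLN the sign of the median differed between single- and double-sorted samples. The share of N was lower than that of WT in 4 of 5 numbers in tumours and in 2 of 5 in NDLN, where the mean difference of -2.84 points came with -10.8 points in replicate 3 and 1.62 in ds1. HetNrp1def minus HetWT gave a median of -0.25 in tumours and 0.25 in NDLN. For N minus WT, 57 of 77 genes were below 0 in tumours (55.3% of all genes) and 70 in NDLN (55.1%). For HetNrp1def minus HetWT, 74 were below 0 in tumours (54.6%) and 11 in NDLN (55.4%). In these 4 comparisons edgeR called 0 of the 77 genes and 0.0% of all genes, and DESeq2 also called 0 of the 77. Of all genes, DESeq2 called 0.0205% lower in tumours and 0.0818% in NDLN for N minus WT. For HetNrp1def minus HetWT these shares were 0.0136% and 0.648%. At an unadjusted p below 0.05, 2 members were lower in NDLN for N minus WT (2.47% of all genes). None of the 77 reached that p in N minus WT in tumours (1.47% of all genes were lower) or in HetNrp1def minus HetWT in tumours (0.92%) or NDLN (3.1%). The tissue difference of N minus that of WT had a median of 0.23, with 14 of 77 below 0 (50% of all genes), and that of HetNrp1def minus that of HetWT -0.43, with 72 below 0 (48.1%). Neither test called a member (0.0% of all genes), and 0 members had an unadjusted p below 0.05, where 1.4% and 1.94% of all genes had one and were lower. A p above the threshold does not show that the genotypes were alike. The standard errors for Rps19 in the 4 comparisons between genotypes ran from 0.25 to 0.28. Rps19 is not typical of the 77, since it had the least variance by replicate number (9.82%). Other members, such as Rplp1 and Rplp2 against effector T cells, had much larger standard errors in the same fit.

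For most members replicate number accounted for more of the variance than group did. Fitted alone, group accounted for a median 31.6% of the log2 CPM variance of a member and replicate number for 57.7%, against 19.6% and 21.7% over all genes tested. Group accounted for more than number in 24 of 77. Rps19 (80.2% by group, 9.82% by number), Rps7 (75.6% and 16.2%) and Rpl15 (64.6% and 26.1%) had the most by group, and Rpl7a (9.31% and 81.5%), Rps12 (11.1% and 83.0%) and Rpl27 (13.1% and 72.9%) the least. Rps19 and Rps7 are also the members with the lowest p in wild-type Tregs. The median share was 16.7% in ds1 samples, 7.26% in ds2 and between 8.34% and 11.2% in the single-sorted numbers. Large over small subunit counts were also unequal: the mean ratio was 1.18 in ds1 and 0.936 in ds2, between 1.01 and 1.12 in the others.

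**Figure D4:**
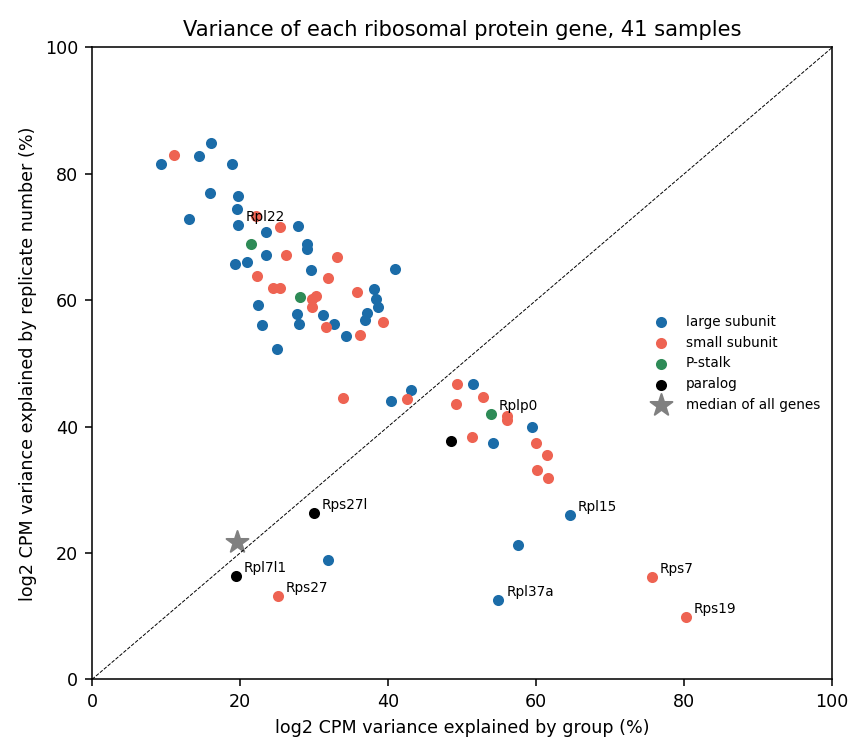
For each of the 77 genes, percent of log2 CPM variance over 41 samples accounted for by group (horizontal axis) and by replicate number (vertical axis), each factor alone, coloured by role. The dashed line marks equal values and the star the median of all genes. Most genes lie above the line, and Rps19 and Rps7 lie far below it, at 80.2% and 75.6% by group.

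Within a number, the tumour direction was more even. A gene was lower in tumours in each of 5 numbers for 53 of 77 members in WT Tregs (68.8%, against 5.19% of all genes tested), for 65 in N Tregs (84.4%, against 7.19%) and, against effector T cells, for 66 (85.7%, against 8.97%). With 3 shared numbers it was 75 of 77 in HetNrp1def (97.4%, against 17.0%), all but Rps27 and Rps27l, and 23 in HetWT (29.9%, against 14.1%). Counts that share a sample rise and fall together, so these members are not independent of each other. In the samples the members did move together: over 2926 pairs the median Pearson r of log2 CPM was 0.87, from -0.51 to 0.99, as a description over 41 samples that share depth, sorting and group. After the means of group and number were removed it was 0.76. The likest to the summed share were Rpl21 (r = 0.975), Rps24 (0.975) and Rps28 (0.971).

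**Figure D5:**
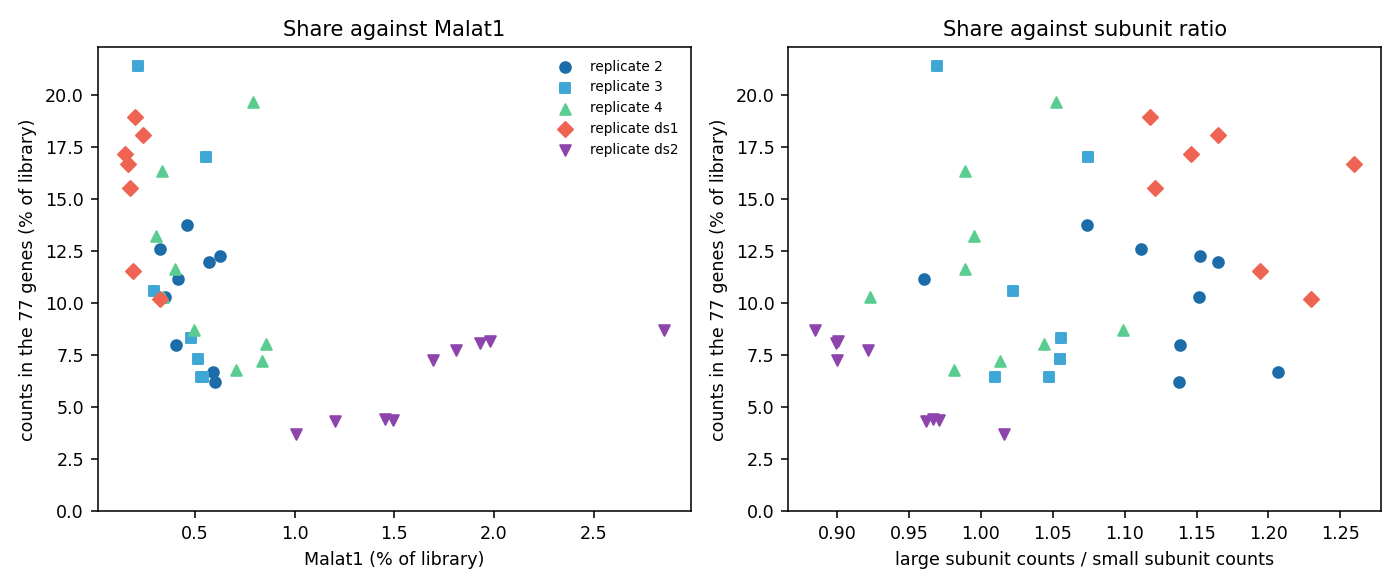
Percent of counts in the 77 genes (vertical axes) against the percent of counts in Malat1 (left) and the ratio of large to small subunit counts (right), one point per sample, coloured and shaped by replicate number. The ds2 samples sit apart at a Malat1 share of 1.01% to 2.85% and a low ratio, and the ds1 samples at a Malat1 share of 0.146% to 0.322%.

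Rps27 and the paralogs Rps27l and Rpl7l1 did not follow the other members. Rps27 (r = -0.241 with the share), Rps27l (-0.143) and Rpl7l1 (0.0195) were the least like it. Rps27l, a near copy of Rps27 that p53 induces, was the member with the highest log2 fold change against effector T cells, at 1.38 (SE 0.68; adjusted p = 0.279, edgeR), and did not pass. It gave 133, 143, 200, 214 and 54.7 CPM in WT tumour Tregs (replicates 2, 3, 4, ds1 and ds2) against 80.5, 49.4, 112, 0.540 and 44.1 in effector T cells. Tumour Tregs were higher in all 5 numbers, but the ranges overlapped. Between tissues Rps27l differed by -0.10 in WT, -0.07 in N, 0.17 in HetWT and 0.92 in HetNrp1def Tregs, none called. The last of these rests on NDLN ds1 at 1.58 CPM.

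Rpl22l1, the counterpart of Rpl22, which is known for its part in T cell development, had a log2 fold change of -0.92 between tissues (SE 0.36; adjusted p = 0.297) and -1.06 against effector T cells (SE 0.36; adjusted p = 0.0742), near the median of the large subunit. Rpl22 itself had -0.59 and -0.30, with standard errors of 0.74. In WT tumour Tregs ds1 gave 1983 CPM and the other 4 samples 280, 252, 454 and 123. Rpl7l1 had -0.40 and 0.05. Rpl3 had -0.84 and -1.13, called in the second comparison, and Rpl39 -1.02 and -0.72, while their paralogs Rpl3l and Rpl39l stayed below the CPM limit. Fau, a ribosomal protein made as a fusion with a ubiquitin-like protein and left out by symbol, had log2 fold changes of -0.69 between tissues in WT Tregs and -0.67 against effector T cells, neither called.

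Genes that serve the ribosome were counted next to its proteins, tissue comparison of WT Tregs first and effector T cells second. Elongation factors and other 5′TOP mRNAs were below 0 in 17 of 17 tested genes (median -0.61) and in 16 of 17 (median -0.80). Of these 1 was called: Eef1a1, which brings aminoacyl-tRNA to the ribosome, fell by 1.004 on the log2 scale against effector T cells (SE 0.24; adjusted p = 0.00428, edgeR). Its range was 5651 to 7479 CPM in WT tumour Tregs and 7651 to 17694 in effector T cells, with no overlap. Ribosome biogenesis factors had medians of -0.46 and -0.31 (27 genes), RNA polymerase I genes -0.30 and -0.80 (14), mTORC1 and Myc genes -0.41 and -0.27 (17) and initiation factors -0.11 and -0.10 (22), with 0 called in each by edgeR. The 76 mitochondrial ribosomal proteins, which serve a separate ribosome, had medians of -0.15 and -0.10 and 0 calls. Set beside medians of -1.07 and -1.13 in the 77 genes and 0.09 and 0.07 over all genes, the cytosolic ribosomal proteins had the lowest median of these lists in both comparisons.

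Some markers of melanoma and B cells differed between tissues in WT Tregs. The 7 melanoma markers, Mlana, Tyr, Tyrp1 and Dct among them, summed to 7.75, 1270 and 3730 CPM (lowest, median and highest) in WT tumour Tregs, against 0.494, 8.61 and 32.9 in WT NDLN Tregs, where Mlana and Cited1 were at 0, and 3.11, 20.6 and 70.6 in effector T cells. In N tumour Tregs, where the share was also lower in 5 of 5 numbers, they summed to 3.14, 30.8 and 810. The 4 B cell markers summed to 1.36, 102 and 669 CPM in WT NDLN Tregs and 2.09, 15.7 and 21.5 in WT tumour Tregs. Between tissues in WT Tregs Mlana and Cited1 were called higher and Ms4a1 lower. In the N, HetNrp1def and HetWT tissue comparisons 0 of the 7 melanoma markers were called. The macrophage, CD8 T cell and NK cell markers had 0 calls in the 4 tissue comparisons, with median log2 fold changes of -0.0049, -0.12 and 1.04 in WT Tregs (4, 2 and 2 genes tested). In HetNrp1def and HetWT tumour Tregs melanoma markers summed to 16.6, 217 and 1949 and to 26.6, 342 and 2194 CPM. Their part, and that of B cells, in the difference of the ribosomal protein genes was not tested. Malat1 took 0.191% to 1.01% of counts in WT tumour and 0.172% to 1.81% in WT NDLN samples.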

How the data were processed

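RNA was measured in 45 libraries of 9 groups of sorted mouse T cells, made from small cell numbers with a SMARTer kit and Nextera XT, per the labels' protocols. The authors deposited counts per gene symbol; STAR, featureCounts, limma and the build mm10 are named in the submitters' processing notes, without versions, and they give no annotation, strand setting or handling of shared reads. A second table the authors deposited holds log2 values of 10832 genes, filtered and normalized, with all 77 members. In this table each gene's mean was equal in all 5 replicate numbers (largest range 3.8e-13), so differences between numbers are not in it.

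The members and lists were chosen with earlier results of these data known. Near-identical libraries (chi-square per degree of freedom below 5) were summed, giving 41 samples. Total counts per sample ran from 2945638 to 35787148. The share of counts uses all counts of a sample. Per-sample CPM were TMM-scaled; log2 CPM used a prior count of 2. The test was edgeR 4.0.16's robust quasi-likelihood test in R 4.3.3 on all 9 groups together (14668 genes after filterByExpr, 32 residual degrees of freedom), with Benjamini-Hochberg adjustment over all genes tested and a threshold of 0.05. Samples in the fit share one estimate of the spread. On simulated data 194 of 200 changed genes were recovered in the WT tissue comparison, with 5 false calls among 14668 genes.

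Genes named in the text are up to 8 called members per comparison by p, Rplp0, Rplp1, Rplp2, Rpsa, Rps27a and the paralogs with their partners, the 5 highest and 5 lowest in mean log2 CPM, the 3 with most and least variance by group, the 3 most and least like the share, those next to the CPM limit, Fau, and list genes that passed; a few of these are not reported here. The sequences shown, the per-kilobase order and 11 further called members were chosen after their values were seen.

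Alternatives were other scalings, no filter, DESeq2 1.42.0, limma 3.58.1 on the deposited log2 values, all 45 libraries, single- or double-sorted samples, a replicate block and each sample left out; fits without ds1 or ds2 were added after seeing the data. Same-numbered samples were checked for deviating together (r above 0.1 over all genes tested, after group means were removed). They did in every pair (lowest r 0.143, 4 pairs) for HetNrp1def minus HetWT in NDLN alone, where the block also gave 0 called members. Promoter sequences are from RefSeq, and shared 50-base stretches were counted over GENCODE vM21 transcripts. Figures used matplotlib 3.10.9.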

Additional observations from a re-analysis of the deposited data

Results flagged for a closer look

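In 11 of 108 checks of 12 quantities (the summed share and single genes) over the 9 groups, the highest or lowest sample stood apart from the rest of its group by Dixon's criterion, which chance gives in about 5 of 100. All 11 were high samples, and 9 of them were ds1. The ds1 samples also had the highest median share (16.7%) and the lowest median share of Malat1 (0.191%) of the 5 replicate numbers, and their part in these values was not tested.

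Rpl22, the large subunit protein known for its part in T cell development, was high in ds1 in 5 groups. It reached 2855 CPM in HetNrp1def NDLN (group median 505) and 2828 in HetWT NDLN (507). It reached 1554 in N NDLN (397), 1059 in N tumour (286) and 1983 in WT tumour Tregs (280).

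Rpl37a was high in HetNrp1def NDLN ds1 at 1413 CPM (460) and in WT NDLN replicate 3 at 1845 (426).

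Rps27, which was at 10 CPM or more in only 5 of the 45 libraries, reached 74.2 CPM in HetWT NDLN ds1 (4.99) and 35.8 in N NDLN ds1 (3.20). Rps7 reached 1456 CPM in N NDLN ds1 (900). Rpl7l1 reached 167 CPM in HetWT NDLN replicate 4 (58.5).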

How the results depend on the processing

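In the 4 tissue comparisons and WT tumour Tregs against effector T cells, the difference in share was below 0 in 81 of 81 alternatives and the median log2 fold change in 106 of 106. The number of called members moved much more. In the order WT, N, HetNrp1def and HetWT tissue comparison, then effector T cells, edgeR called 4, 1, 2, 0 and 19. The share of all genes that the same fit called lower follows in parentheses. RLE scaling, which moved the median of all genes to 0.21 in WT and -0.22 in HetNrp1def Tregs, called 1, 0, 7, 0 and 5 (0.307%, 0.157%, 0.839%, 0.0818% and 1.27%). Total counts without TMM called 15, 12, 2, 1 and 24 (0.409%, 0.3%, 0.157%, 0.075% and 1.25%), and TMM factors from the other genes 14, 8, 2, 0 and 25 (0.43%, 0.28%, 0.266%, 0.0818% and 1.6%). No filter called 8, 6, 0, 0 and 18 (0.166%, 0.166%, 0.0875%, 0.035% and 0.717%). DESeq2 called 3, 0, 27, 1 and 9 (1.14%, 0.682%, 4.08%, 1.09% and 3.16%). All 45 libraries called 7, 9 and 2 in WT, HetNrp1def and HetWT (0.584%, 0.963% and 0.401%). limma on the deposited log2 values called 0, 8, 0, 0 and 0 (0.0185%, 0.628%, 0.00923%, 0.0185% and 0.0185%). Single-sorted samples called 62, 17, 4, 1 and 59 (1.32%, 0.48%, 0.399%, 0.291% and 2.79%), and 1, a higher one, for WT NDLN Tregs against effector T cells. Double-sorted samples called 0 in each, with fewer samples (at most 0.0345%). Without ds2 the counts were 33, 19, 6, 0 and 46 (0.422%, 0.271%, 0.126%, 0.0301% and 1.04%), and without ds1 30, 3, 1, 1 and 30 (1.25%, 0.432%, 0.447%, 0.288% and 3.1%). The cause of these shifts was not tested. Of the named genes' values, 0 changed sign in a called direction.

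Leaving out 1 sample gave 1 to 10 calls in WT (1 without NDLN 3, 2 without tumour 2 or ds2, 7 to 10 without NDLN 4 or ds2 or tumour 3, 4 or ds1). It gave 0 to 5 in N (0 without NDLN 4, tumour ds1 or tumour ds2, 5 without NDLN 3), and 0 to 4 in HetNrp1def (0 without NDLN ds1 or tumour 2, 3 or ds2, 1 without NDLN 2 or 4 or tumour 4, 4 without NDLN ds2). Against effector T cells it gave 10 (without effector ds1) to 25, and 12 without tumour ds2. Leaving out a HetNrp1def sample also let more genes through the filter and changed the TMM factors, and the median of the members, -1.31 with all samples, then lay between -1.28 and -0.66.

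The replicate block fits the number beside the group. The check asked for an r above 0.1 in every same-numbered pair. Only HetNrp1def minus HetWT in NDLN met this limit, and the block changed no call there. N Tregs between tissues (lowest r 0.09998) and N minus WT in tumours (0.0964) missed it narrowly. Missing the limit does not show that same-numbered samples share nothing. Replicate number alone accounted for a median 57.7% of a member's variance, and the main fit has no term for it. In the order above, 3 of 5, 4 of 5, 1 of 3, 1 of 3 and 3 of 5 same-numbered pairs deviated together. There the fit with the replicate block called 69, 35, 30, 5 and 64 members (1.36%, 0.798%, 0.654%, 0.198% and 3.03% of all genes were called lower).

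Depth limits the shallow ds2 samples most (at most 5408375 counts).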
